A study of Mus musculus with 24 samples.

Results

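Bone morphogenetic protein (BMP) and activin signalling genes were followed through the mammary gland of mice with and without Snai2: the ligand genes Bmp2, Bmp4, Bmp7, Bmp8a, Inhba and Inhbb, the antagonist gene Fst, and the target genes Id1, Id2 and Id3. Every probe of the array table that carries 1 of these 10 symbols was taken, whatever its values. Of the 10 genes, 9 had a probe, among 18138 symbols on the array, and together they had 10 of the 25697 probes because Id2 has 2. Inhbb was not analysed here. Of the 10 probes, 9 passed the filter on dim probes, a detection p below 0.05 on at least 3 of the 24 arrays, and the Bmp2 probe did not.

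The study asked how the mammary cell populations differ when Snai2, the gene of the transcriptional repressor Slug, is lost. Cells of female mice homozygous for a LacZ allele of the gene (SNAI2 LacZ/LacZ, called null) were compared with those of wild-type mice (SNAI2+/+, called WT). Basal, luminal and stromal cells had been separated by the surface proteins CD49f and Epcam, and unsorted cells were measured beside them. Each of the 8 groups had 3 Illumina bead arrays, and the labels give no strain, no age and no restriction of the allele to a cell type.

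BMP and activin dimers bind pairs of serine/threonine kinase receptors that phosphorylate Smad proteins, which then enter the nucleus and regulate transcription. Follistatin, the product of Fst, captures activins and some BMPs outside the cell before they reach a receptor. The Id genes are classic transcriptional targets of BMP signalling, and their proteins lack a DNA-binding region and hold E proteins such as those of Tcf3 and Tcf4 away from E-box DNA. In mice, loss of Inhbb impairs mammary duct growth, loss of Id2 impairs lactation, and Bmp4 acts in the embryonic mammary mesenchyme.

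Slug binds E-boxes, DNA of the form CANNTG, with CAGGTG as its usual core. RefSeq promoters (GRCm38.p6) were at hand for 6 of the 10 genes, Bmp4, Bmp8a, Inhba, Inhbb, Id2 and Id3, and the 250 bases before the start site of each were searched on both strands. The promoters of Bmp8a and Bmp4 are shown because Bmp8a is the member that differed between null and WT cells and Bmp4 is a ligand lower in both epithelial populations than in stromal cells. Each is written along the gene's own strand, ends at the base before the start site, and has every CANNTG in capitals. The Bmp8a stretch lies at chr4:123343253-123343502 and the Bmp4 stretch at chr14:46390670-46390919, both on the minus strand.
Bmp8a: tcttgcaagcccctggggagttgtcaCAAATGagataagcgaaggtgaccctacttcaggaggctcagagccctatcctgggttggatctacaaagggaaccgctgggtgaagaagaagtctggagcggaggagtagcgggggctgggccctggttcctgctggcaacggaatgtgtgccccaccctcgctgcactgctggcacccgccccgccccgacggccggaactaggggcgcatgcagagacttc
Bmp4: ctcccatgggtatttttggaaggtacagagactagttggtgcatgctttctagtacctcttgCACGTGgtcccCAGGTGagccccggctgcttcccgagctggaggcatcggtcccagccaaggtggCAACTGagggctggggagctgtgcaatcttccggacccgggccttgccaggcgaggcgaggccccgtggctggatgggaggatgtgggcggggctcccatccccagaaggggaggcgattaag

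The Bmp8a stretch held 1 CANNTG, beginning at position -224 from the start site, and no CAGGTG. The Bmp4 stretch held 3, at -188, -177 and -123, and the one at -177 is also a CAGGTG, so these matches overlap. Id2 had 1 CANNTG at -196, and Id3, Inhba and Inhbb had 0. Among 32851 RefSeq promoters, 66.2% held a CANNTG and 17.2% a CAGGTG in the same window. GGCGCC, a motif through which Smads act at BMP targets, was found once in Id2 at -231 and in 9.59% of all promoters. The Smad palindrome GTCTAGAC was in none of the 6 and in 0.167% of all. A match describes the letters of the window and was not tested as a site.

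Median raw intensity ran from 93.6 to 143.71 per array. The sort labels were set against markers: all 9 basal markers tested, such as Krt5 and Trp63, passed as higher in WT basal than luminal cells, 10 of 11 luminal markers as lower, and all 9 fibroblast markers as lower in WT basal and luminal than in stromal cells. Endothelial markers had mean centred log2 levels of -1.21, -0.92 and -1 in null basal cells, against 0.9, 0.26 and -0.79 in WT basal cells, where replicates 1 and 2 stood apart. Snai2 itself was not analysed here, so its level did not check the genotype labels. The third principal component, with 9.79% of the variance, split the arrays in a way no label gives. Its positive side held 11 arrays, namely WT replicates 1 and 2 of every population and null replicate 1 of basal, luminal and stromal cells. Sample codes in the labels (W1 to W3, N1 to N3) run through the populations of a genotype, but nothing says that they name animals, and p-values therefore describe the spread among these arrays, part of which may be technical. In bulk samples like these, fewer cells of a type and less RNA per cell cannot be told apart.

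**Figure D1:**
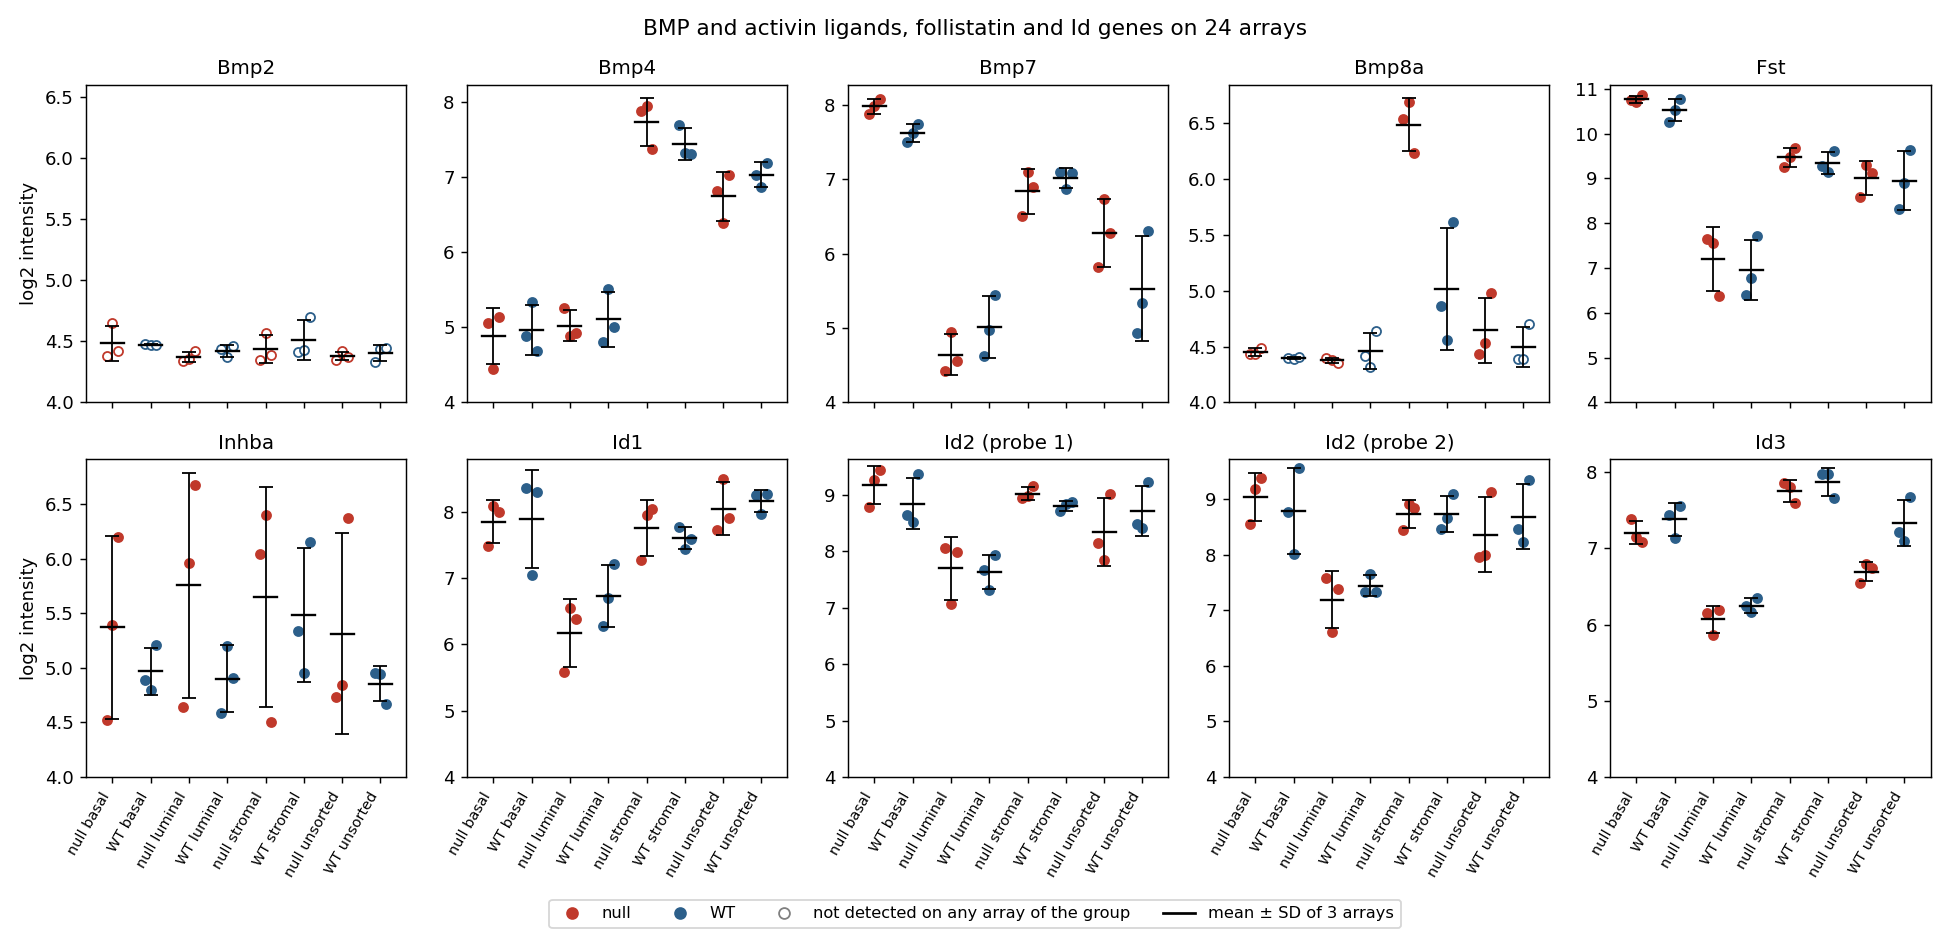
Log2 intensity of each member probe on the 24 arrays, by group (points, 3 arrays each; bars, mean ± SD), with open points where no array of a group detected the probe. Bmp4 and Bmp8a were brightest in stromal arrays, Bmp7 and Fst in basal arrays, and the Id genes dimmest in luminal arrays.

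Bmp4, a ligand of the BMP2/4 group, was highest in stromal cells. It was still detected on 2 of 3 null basal, 2 of 3 WT basal, 2 of 3 null luminal and 3 of 3 WT luminal arrays. Its log2 intensities were 5.06, 4.45 and 5.14 in null basal and 4.89, 5.33 and 4.68 in WT basal cells, and 5.26, 4.88 and 4.92 in null luminal and 4.80, 5.51 and 5.01 in WT luminal cells. In stromal cells they were 7.88, 7.94 and 7.37 (null) and 7.69, 7.32 and 7.31 (WT). Every stromal array lay above every sorted epithelial array, and basal and luminal arrays overlapped. The basal level was 5.54-fold lower than the stromal one in WT cells (log2 change of -2.47 with an SE of 0.25, adjusted p = 6.16e-07, 3 arrays a group, limma with Benjamini-Hochberg adjustment, as for every adjusted p here) and 7.19-fold lower in null cells (-2.85 ± 0.25, adjusted p = 5.12e-08). Luminal cells were also lower than stromal cells, by -2.33 ± 0.25 in WT and -2.71 ± 0.25 in null cells. Basal and luminal cells did not differ past the threshold, with a 95% interval of the log2 change from -0.66 to 0.38 in WT cells. Unsorted cells lay between, at 6.74 ± 0.32 in null and 7.02 ± 0.17 in WT cells (SD, n = 3).

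Bmp7, a ligand of another BMP subgroup, was unequal within the epithelium: it was high in basal cells, intermediate in stromal cells and near the limit of detection in luminal cells. Its log2 intensities were 7.88, 7.99 and 8.08 in null basal and 7.50, 7.62 and 7.75 in WT basal cells. Luminal values were 4.42, 4.95 and 4.56 in null cells, with 1 of 3 arrays detected, and 4.62, 4.98 and 5.45 in WT cells, with 2 detected. Stromal values were 6.51, 7.10 and 6.90 in null and 7.10, 6.87 and 7.09 in WT cells. The ranges of basal, stromal and luminal arrays did not overlap in either genotype. The basal level was 10.1-fold the luminal one in null cells (log2 change 3.34 ± 0.30, adjusted p = 4.5e-07) and 6.11-fold in WT cells (2.61 ± 0.30, adjusted p = 4.68e-06). Against stromal cells the basal level passed in null cells (1.15 ± 0.30, adjusted p = 0.00738) and not in WT cells (0.61 ± 0.30, adjusted p = 0.188, 95% interval -0.01 to 1.22). The difference between these 2 changes did not pass (0.54 ± 0.42, adjusted p = 1). The luminal level was lower than the stromal one by -2.19 ± 0.30 in null and -2 ± 0.30 in WT cells.

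Bmp8a, a close relative of Bmp7 best known for roles in male germ cells, was detected on 6 of 24 arrays, 5 of them stromal. Basal, luminal and WT unsorted arrays did not detect it, with group means from 4.38 to 4.49, and 1 null unsorted array did. Its passing of the filter rests on the stromal arrays, so a difference from the other populations was fixed by that choice in part. The null basal level was at least 2.89-fold lower than the null stromal one (adjusted p = 6.48e-07), and the null luminal level at least 3.03-fold lower (adjusted p = 5.1e-07). In WT cells the same bounds were 1.07-fold and 1.12-fold, and neither comparison passed (adjusted p = 0.0635 and 0.0808). Basal over stromal in WT cells passed with the sample code as a block (-0.62, adjusted p = 0.0406) and with the unlabelled split as a block (adjusted p = 0.0379). It also passed with array weights (-0.54, adjusted p = 0.0447) and without WT stromal replicate 2 (-0.84, adjusted p = 0.0126). Luminal over stromal in WT cells passed with array weights (-0.5, adjusted p = 0.0377) and without WT stromal replicate 2 (-0.78, adjusted p = 0.0158). A probe of Bmp8b, the neighbouring near copy, was detected on 0 of 24 arrays.

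The remaining ligand genes carried little signal. The Bmp2 probe was detected on 0 of 24 arrays, with group means from 4.37 to 4.51, and was left out of the tests. Inhba encodes the subunit of activin A. It was detected on 15 of 24 arrays with group means from 4.86 to 5.76, and its arrays varied widely inside groups, as in null luminal cells at 4.64, 5.96 and 6.67 against WT luminal cells at 4.59, 5.20 and 4.91. Its null arrays ranged from 4.50 to 6.67 over the populations, every group overlapped its neighbour in order of level, and it passed in none of the 10 comparisons between groups. It did pass on the positive side of the unlabelled split in null basal over stromal cells (-1.52, adjusted p = 0.0465), on single arrays.

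Fst, the antagonist, was highest in basal and lowest in luminal cells. Its log2 intensities were 10.75, 10.71 and 10.86 in null basal and 10.27, 10.54 and 10.77 in WT basal cells. In luminal cells they were 7.65, 7.57 and 6.38 (null) and 6.41, 6.77 and 7.71 (WT), and in stromal cells 9.26, 9.48 and 9.69 (null) and 9.28, 9.15 and 9.61 (WT). Every basal array lay above every stromal array, and every stromal array above every luminal one. The basal level was 11.9-fold the luminal one in null cells (log2 change 3.57 ± 0.36, adjusted p = 1.5e-06) and 11.8-fold in WT cells (3.56 ± 0.36, adjusted p = 1.15e-06). Basal cells were also higher than stromal cells, by 1.29 ± 0.36 in null cells (adjusted p = 0.0116) and 1.18 ± 0.36 in WT cells (adjusted p = 0.0252). The WT call was lost without WT basal replicate 2 or 3 or WT stromal replicate 1 or 2, and with median scaling, with log2 changes of 0.99 to 1.31 over all settings. Luminal cells were lower than stromal cells by -2.28 ± 0.36 in null and -2.38 ± 0.36 in WT cells.

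Over the 8 group means, the Bmp7 and Fst probes had a Pearson correlation of 0.95, and over the 24 arrays 0.94. Bmp4 and Bmp7 had one of 0.06 over the means. These describe the same arrays and populations, and are not independent of the comparisons above.

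The Id genes shared a pattern of low luminal levels. Id3 had log2 intensities of 7.38, 7.15 and 7.09 in null basal and 7.44, 7.14 and 7.56 in WT basal cells, and of 6.15, 5.87 and 6.19 in null luminal and 6.24, 6.16 and 6.35 in WT luminal cells. In stromal cells it stood at 7.86, 7.81 and 7.59 (null) and 7.98, 7.98 and 7.66 (WT). Luminal, basal and stromal arrays of one genotype did not overlap, with luminal lowest and stromal highest. Id3 was 2.20-fold higher in basal than luminal null cells (1.14 ± 0.18, adjusted p = 0.000226) and 2.19-fold in WT cells (1.13 ± 0.18, adjusted p = 2e-04). Luminal cells were lower than stromal cells by -1.69 ± 0.18 in null and -1.62 ± 0.18 in WT cells (adjusted p = 8.13e-07 and 1.97e-06). Basal cells were lower than stromal cells by -0.55 ± 0.18 in null cells (adjusted p = 0.0406), and by -0.49 ± 0.18 in WT cells without passing (adjusted p = 0.0794). The null call was lost without null basal replicate 2 or 3 or null stromal replicate 1 or 2.

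Id1, a common readout of BMP signalling, had log2 intensities of 7.48, 8.08 and 7.99 in null basal and 8.35, 7.04 and 8.29 in WT basal cells. Luminal values were 5.58, 6.54 and 6.38 (null) and 6.27, 6.70 and 7.21 (WT), and stromal values 7.27, 7.95 and 8.04 (null) and 7.77, 7.44 and 7.58 (WT). The null basal and luminal ranges did not overlap, and in WT cells basal replicate 2 lay below luminal replicate 3. Basal cells were higher than luminal cells by 1.68 ± 0.34 in null cells (adjusted p = 0.00199) and by 1.16 ± 0.34 in WT cells (adjusted p = 0.0253). The WT call was lost without WT basal replicate 1 or 3 or WT luminal replicate 1 or 2. Luminal cells were lower than stromal cells by -1.59 ± 0.34 in null cells (adjusted p = 0.00135), and in WT cells the change of -0.87 ± 0.34 did not pass (adjusted p = 0.0726). This WT change passed with the sample code as a block (adjusted p = 0.0174) and with the unlabelled split as a block (0.0229). It also passed with array weights (-1.14, adjusted p = 0.00764) and without WT luminal replicate 3 (-1.11, adjusted p = 0.0396). Id1 was the member whose highest means were in unsorted cells, 8.04 ± 0.40 in null and 8.16 ± 0.16 in WT cells, ranges that overlapped those of basal cells.

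Id2 had 2 probes, ILMN_1228557 and ILMN_2887239, drawn as probes 1 and 2, with a correlation of 0.94 over the arrays. ILMN_1228557 had log2 intensities of 8.79, 9.27 and 9.44 in null basal and 8.64, 8.52 and 9.36 in WT basal cells, against 8.05, 7.06 and 7.98 in null luminal and 7.66, 7.32 and 7.93 in WT luminal cells. Its stromal values were 8.94, 8.97 and 9.15 (null) and 8.71, 8.84 and 8.88 (WT). Basal and stromal ranges overlapped, and luminal arrays lay below both. Basal cells were higher than luminal cells by 1.47 ± 0.32 in null and 1.20 ± 0.32 in WT cells on this probe (adjusted p = 0.00352 and 0.0134), and by 1.85 ± 0.39 and 1.34 ± 0.39 on the other (adjusted p = 0.00267 and 0.0233). The WT call was lost on ILMN_1228557 without WT basal replicate 3 or WT luminal replicate 2, and on ILMN_2887239, in 7 of 15 alternatives, among them those without WT basal replicate 1 or 3 or WT luminal replicate 1 or 3. Luminal cells were lower than stromal cells by -1.33 ± 0.32 in null and -1.17 ± 0.32 in WT cells, and by -1.55 ± 0.39 and -1.29 ± 0.39 on ILMN_2887239. The WT call was lost on ILMN_1228557 without WT luminal replicate 2, and on ILMN_2887239 without WT luminal replicate 1 or 3 or WT stromal replicate 3.

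Endothelial markers differed between these basal arrays, with 3 to 4 of 10 detected in null and 6 to 10 in WT basal cells. In null over WT basal cells 1 of 10 endothelial, 3 of 5 adipocyte and 2 of 5 Schwann cell markers passed, all lower. Of all probes 0.666% passed there. Fibroblast, pericyte and macrophage lists had 0 passing, with a median fibroblast change of -0.92. The part of these markers in the Id values was not tested.

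Counted by comparison, 6 of 9 member probes passed between null basal and luminal cells, all higher, where 10.1% of all 17878 probes passed and 5.63% were higher. Between WT basal and luminal cells 6 passed, all higher, where 13.6% of all probes passed and 6.84% were higher. Between basal and stromal cells 2 were higher and 3 lower in null cells, where 20.1% of all probes passed, 9.74% higher and 10.3% lower. In WT cells 1 was higher and 1 lower, where 16.5% passed, 7.79% higher and 8.69% lower. Between luminal and stromal cells 8 were lower in null cells, where 23.9% passed and 12.1% were lower, and 6 were lower in WT cells, where 22.6% passed and 11.4% were lower. Bmp8a, which entered the tests through its stromal arrays, is among the lower probes in null cells, and without it 2 of 8 were lower between basal and stromal cells and 7 of 8 between luminal and stromal cells. Array ranges were apart for 7 member probes in null and 5 in WT cells for basal over luminal (27.8% and 30.3% of all probes), the 7 including Bmp8a, which neither group detected, for 5 and 5 for basal over stromal (35.8% and 27.5%), and for 8 and 7 for luminal over stromal (36.5% and 33.8%). The median log2 change of the 9 probes was 1.47 in null and 1.16 in WT cells for basal over luminal, beside -0.02 and 0 over all probes. For luminal over stromal it was -1.69 in null and -1.29 in WT cells, beside 0.09 and 0.07. Without WT basal replicate 3 the count between WT basal and luminal cells was 3, and without WT basal replicate 2 or 3 or WT stromal replicate 1 the count between WT basal and stromal cells was 1.

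**Figure D2:**
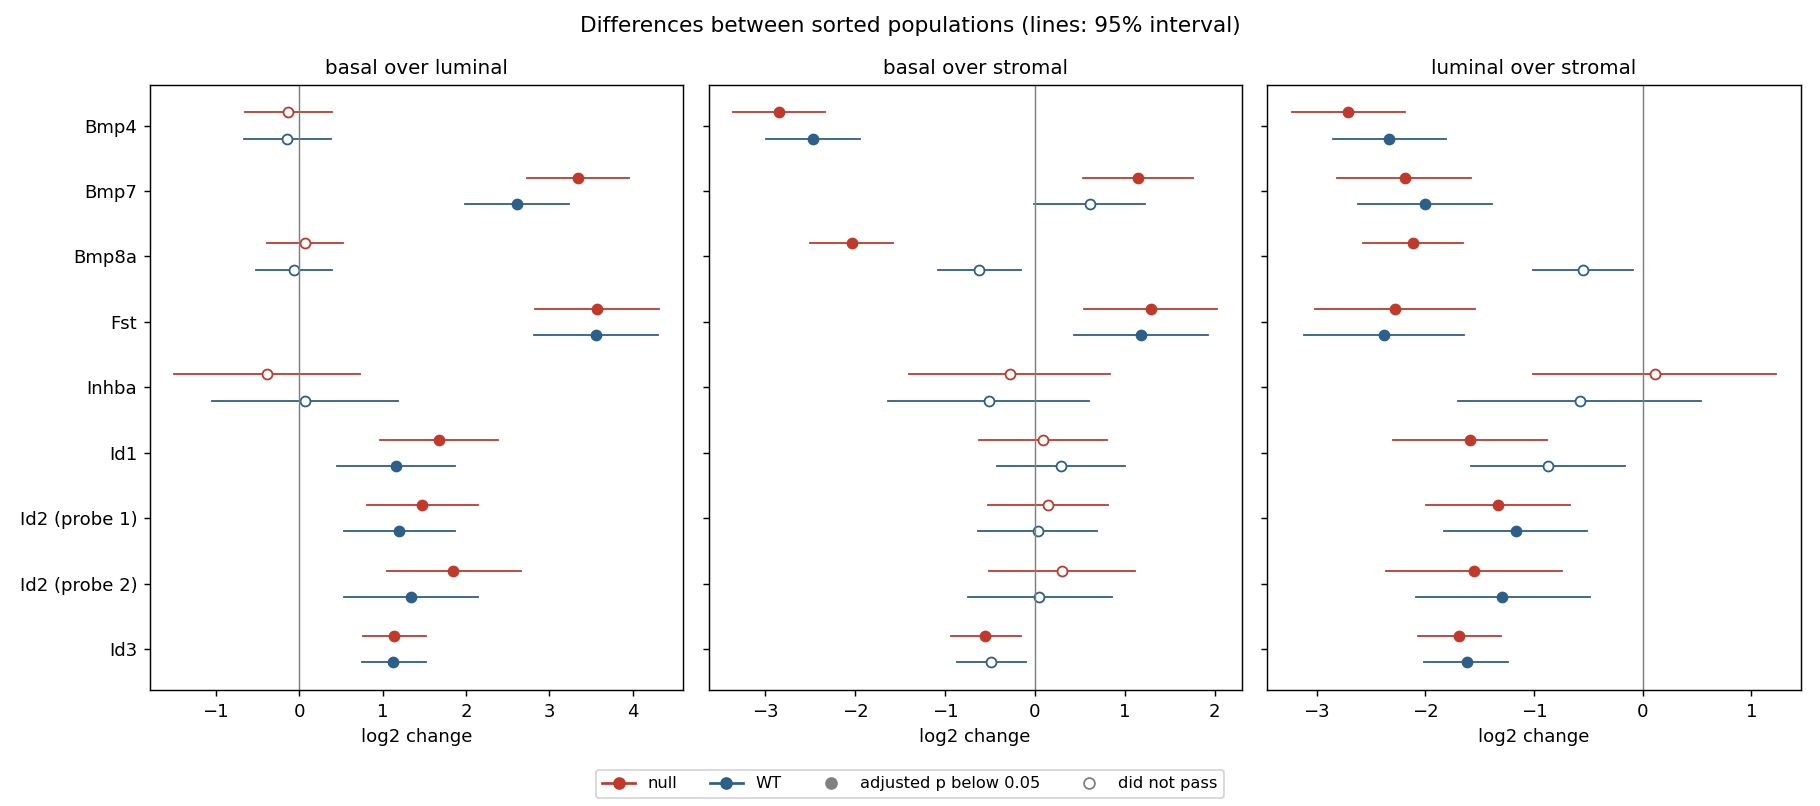
Log2 change of each member probe between sorted populations with its 95% interval, null above WT, filled where the adjusted p was below 0.05. Bmp7, Fst and the Id genes lie right of 0 for basal over luminal, and Bmp4 lies left of 0 for both comparisons with stromal cells.

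The unlabelled split left 1 null array per sorted population on its positive side and 1 WT array on its negative side, so only null cells on the negative side and WT cells on the positive side kept 2 arrays a group. On those sides Fst in basal over luminal cells changed by 3.81 in null cells and 3.81 in WT cells. Bmp7 changed by 3.28 in null and 2.76 in WT cells, and Bmp4 in basal over stromal cells by -2.86 in null and -2.39 in WT cells, each past the threshold. Id1 in basal over luminal cells passed there in null cells (1.57, adjusted p = 0.0104) and not in WT cells (1.21, adjusted p = 0.117). Id2 on ILMN_2887239 did not pass in WT cells either (0.9, adjusted p = 0.101). In null basal over stromal cells Fst (1.2, adjusted p = 0.0721), Bmp7 (1.04, adjusted p = 0.0528) and Id3 (-0.58, adjusted p = 0.104) lost their calls. The other member calls between sorted populations stayed past the threshold on these sides.

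Between genotypes, 1 member passed in 1 population: Bmp8a was higher in null stromal cells. Its log2 intensities were 6.54, 6.69 and 6.23 in null stromal cells, all 3 detected, against 4.86, 4.56 and 5.62 in WT stromal cells, 2 of them detected. Every null array lay above every WT array. Ranges were apart, in either direction, for 2 of the 9 member probes in this comparison and for 6.91% of all probes. The null level was 2.77-fold the WT level (log2 change 1.47 ± 0.22, SE, 95% interval 1.01 to 1.93, adjusted p = 0.00946), and Bmp8a was the 1 probe of 17878 that was higher in null stromal cells, 0.00559% of all, with 0.0224% passing in either direction. The call was lost without WT stromal replicate 1 (1.39, adjusted p = 0.0855) or 2 (1.25, adjusted p = 0.116), and without null stromal replicate 1 (1.44, adjusted p = 0.0549) or 2 (1.37, adjusted p = 0.0582). Within the unlabelled split, where 1 genotype had a single stromal array on each side, the change was 1.83 on the positive side (adjusted p = 0.263) and 0.83 on the negative side (adjusted p = 0.715), and with the split as a block it was 1.4 (adjusted p = 0.01).

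In the same stromal arrays, fibroblast markers had mean centred log2 levels of 2.31 to 2.37 in null and 2.02 to 2.32 in WT cells, with 8 of 9 changes positive, a median of 0.18 and 0 passing (limma, 0 also at an unadjusted p below 0.05). Pericyte markers stood at 0.71 to 1.36 in null and 1.08 to 1.28 in WT cells, and endothelial markers at -0.39 to -0.04 in null and -0.54 to 0.62 in WT cells. Their part in the Bmp8a result was not tested.

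The null effect on Bmp8a was compared between populations directly. In basal minus stromal cells the effects differed by -1.42 ± 0.31 (adjusted p = 0.0906, 0.145% of probes passed) and in luminal minus stromal cells by -1.56 ± 0.31 (adjusted p = 0.34, 0.00559% passed), so neither difference passed. Both rest on epithelial groups in which the probe was not detected. Each passed with array weights (-1.47, adjusted p = 0.00637, and -1.60, adjusted p = 0.0297) and without WT stromal replicate 3 (-1.73, adjusted p = 0.00416, and -1.86, adjusted p = 0.0183). No other member passed in these comparisons or in the difference between basal and luminal effects, where 0.151% of all probes passed. At an unadjusted p below 0.05 that difference had 0 members (limma), beside 4% of all probes.

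**Figure D3:**
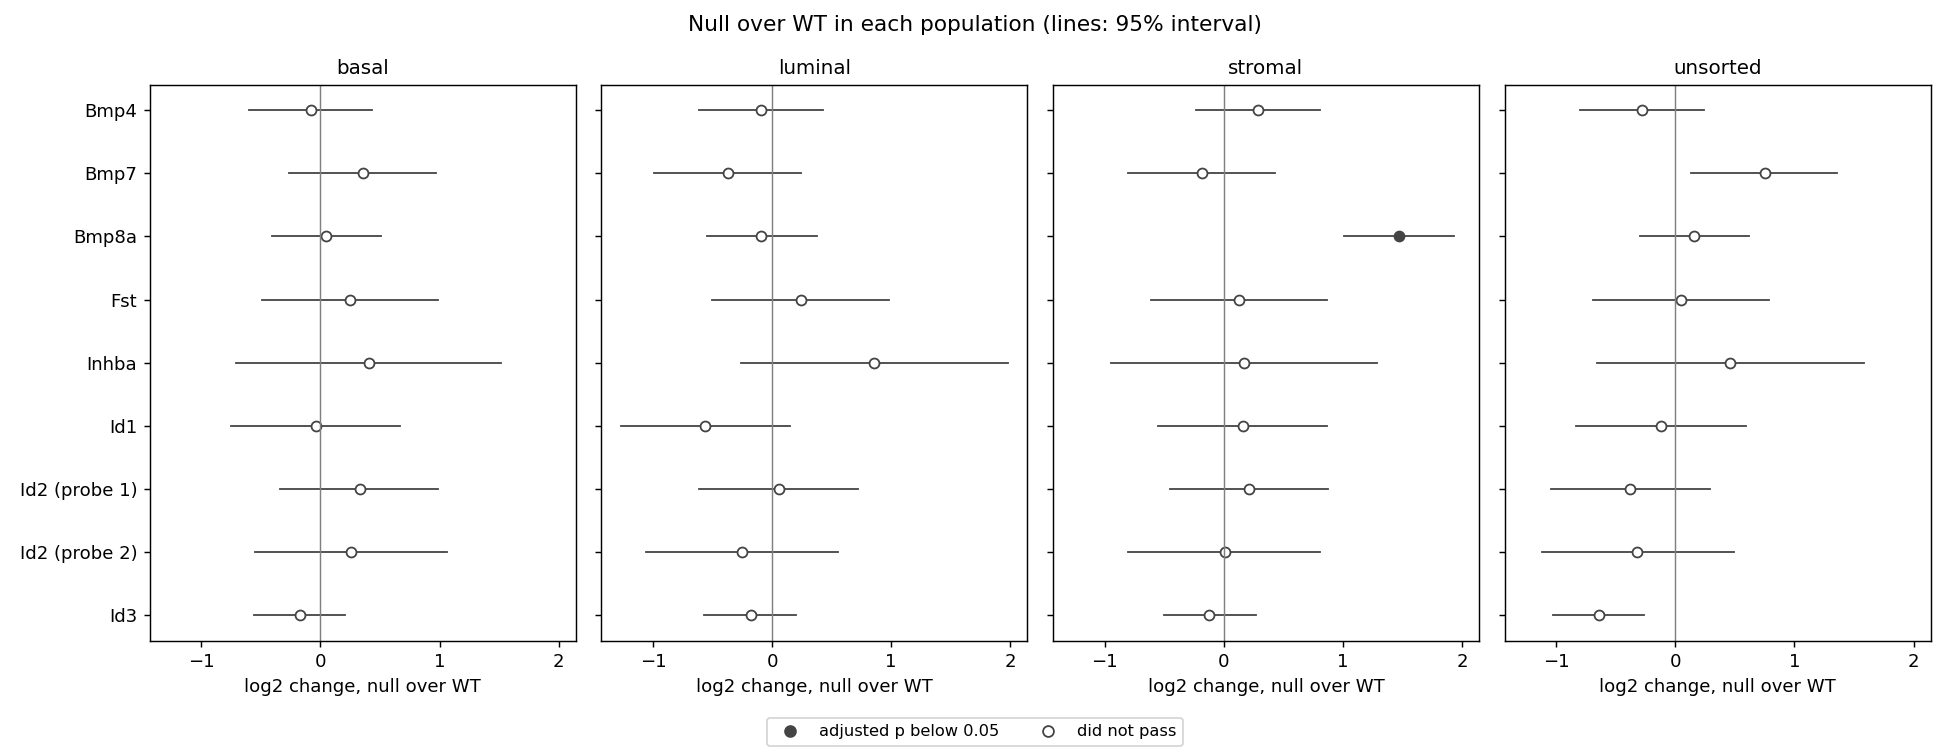
Log2 change of null over WT for each member probe with its 95% interval, by population, filled where the adjusted p was below 0.05. Bmp8a in stromal cells is the filled point, at 1.47, and the other intervals in basal, luminal and stromal cells reach across 0.

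No member passed between null and WT basal cells (limma, 0.666% of all probes passed) or between null and WT luminal cells (0.00559% passed). At an unadjusted p below 0.05 there were likewise 0 members, beside 7.54% of all probes in basal and 3.42% in luminal cells. In luminal cells no member's ranges were apart, against 8.9% of all probes. The 95% intervals show what size remained possible. For Bmp7 in basal cells the change was 0.36 with an interval of -0.26 to 0.97, although every null array, from 7.88, lay above every WT array, to 7.75. Ranges of 2 member probes did not overlap in that comparison, 1 of them Bmp8a, which neither group detected, and 13% of all probes did likewise. For Fst in basal cells the interval ran from -0.49 to 0.99, and for Id1 in luminal cells, at -0.56, from -1.27 to 0.15.

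Unsorted cells had 0 members past the threshold (limma, 0.257% of all probes passed). At an unadjusted p below 0.05 there were 2 of the 9 member probes, beside 11.1% of all probes. Id3 had log2 intensities of 6.55, 6.79 and 6.74 in null and 7.22, 7.10 and 7.68 in WT unsorted cells, ranges that did not overlap, as for 15.5% of all probes (-0.64 ± 0.18, adjusted p = 0.166). Bmp7 had 5.82, 6.73 and 6.28 in null and 4.94, 5.34 and 6.31 in WT unsorted cells, ranges that overlapped (0.75 ± 0.30, adjusted p = 0.332). The unlabelled split falls unevenly here, since its positive side took WT replicates 1 and 2 but no null array. WT replicate 3, which shared a side with the null arrays, was inside the null range for Bmp7 (6.31) and above it for Id3 (7.68). With only that WT array beside the null ones, this comparison cannot separate genotype from the split. Marker levels of several cell types shifted in these samples too. Macrophage markers had mean centred levels of 0.16 to 1.28 in null and 1.86 to 2.53 in WT cells, with 3 of 8 lower and 0 of 8 changes positive. In the fibroblast, endothelial and luminal lists 0 markers passed. Fibroblast markers had 0 of 9 changes positive with a median of -1.03, and endothelial markers 0 of 10 with a median of -0.59. Luminal markers had 9 of 11 positive with a median of 0.6. The part of all these markers in the Id3 and Bmp7 values was not tested.

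The wider pathway was followed in 97 further genes, of which 60 were tested. Between null and WT cells 0 of the 60 passed in any of the 4 populations (limma), with 3 at an unadjusted p below 0.05 in basal, 1 in luminal, 3 in stromal and 15 in unsorted cells. Of all probes, 7.54% were below it in basal, 3.42% in luminal, 4.54% in stromal and 11.1% in unsorted cells. Their median log2 changes were -0.17, 0.01, 0.11 and -0.12 in the same order of populations, beside 0, 0, 0 and 0.02 over all probes. Between populations, 9 were higher and 3 lower in null basal than luminal cells, and 13 higher and 2 lower in WT cells. Against stromal cells, null basal cells had 2 of them higher and 19 lower, and WT basal cells 5 and 20. Null luminal cells had 3 higher and 24 lower against stromal cells, and WT luminal cells 4 and 28. The shares of all probes passing in these comparisons, in either direction, were 10.1% in null and 13.6% in WT cells for basal over luminal, 20.1% and 16.5% for basal over stromal, and 23.9% and 22.6% for luminal over stromal.

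Among 12 other ligands tested, 3 were lower in null basal than stromal cells and 5 in WT basal than stromal cells. Between luminal and stromal cells 2 were lower and 1 higher in null cells, and 5 were lower in WT cells. Gdf10, also called Bmp3b, was lowest against stromal cells, by -4.87 ± 0.57 in null basal and -3.21 ± 0.57 in WT basal cells, and by -5.38 ± 0.57 in null luminal and -3.89 ± 0.57 in WT luminal cells. Bmp3, undetected in WT basal cells, was at least 1.82-fold lower there than in WT luminal cells (adjusted p = 0.00872).

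Of 14 receptors and co-receptors tested, 2 were higher and 2 lower in null basal than luminal cells, with a median log2 change of 0.01, and 3 were higher and 1 lower in WT cells, with a median of 0.55. The co-receptor gene Tgfbr3 was higher in basal cells, by 2.73 ± 0.35 in null and 2.45 ± 0.35 in WT cells, and the type I receptor gene Tgfbr1 by 1.5 ± 0.28 in WT cells. Bmpr1b, a type I BMP receptor gene, was not detected in basal cells and was at least 2.29-fold lower than in luminal cells in null and at least 2.78-fold lower in WT cells. Of its other probes, ILMN_1216262 was likewise not detected in basal cells and was detected on all luminal arrays, while ILMN_1228799 and ILMN_1219486 were detected on 2 of 24 arrays each and did not show the luminal signal. Against stromal cells 7 receptors were lower in luminal cells of each genotype, such as Tgfbr2 (-1.66 ± 0.30 in null and -1.56 ± 0.30 in WT cells).

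Extracellular antagonists divided by population. Of 12 tested, 8 were lower and 1 higher in null basal than stromal cells, and 7 lower and 2 higher in WT basal cells, while 9 were lower in luminal than stromal cells of each genotype. Bmper, a BMP-binding modulator, was at least 17.1-fold lower in null luminal than stromal cells and at least 14.6-fold lower in WT basal than stromal cells, groups in which it was not detected. Chrd, which encodes chordin, was at least 4.72-fold lower in null basal and at least 4.91-fold lower in WT basal cells than in stromal cells. Sostdc1, an antagonist of BMP and Wnt ligands, went the other way: it was undetected in stromal cells, so that null basal cells were at least 14.2-fold higher and WT basal cells at least 12.1-fold higher. It was also higher in basal than luminal cells, by 3.31 ± 0.42 in null and 2.50 ± 0.42 in WT cells, as Fst was. Nbl1, a DAN family antagonist, was lower in luminal than stromal cells by -3.70 ± 0.34 in null and -3.90 ± 0.34 in WT cells.

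Of 10 Smads and intracellular inhibitors tested, Smad1, which carries the BMP signal, was higher in basal than luminal cells by 0.87 ± 0.23 in null and 0.86 ± 0.23 in WT cells. Smad7, an inhibitory Smad gene, was higher by 1.29 ± 0.41 in WT cells (adjusted p = 0.0423). Among 12 Id partners and other targets, the fourth Id gene, Id4, was higher in basal than luminal cells by 3.19 ± 0.39 in null and 3.21 ± 0.39 in WT cells. The E protein genes Tcf3 and Tcf4 were low in luminal cells as well. Tcf3 was lower than in stromal cells by -2.17 ± 0.33 in null and -1.87 ± 0.33 in WT cells, and Tcf4 by -2.52 ± 0.34 and -2.41 ± 0.34. Tcf12, the other E protein gene listed, was not among the genes past the threshold between sorted populations.

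**Figure D4:**
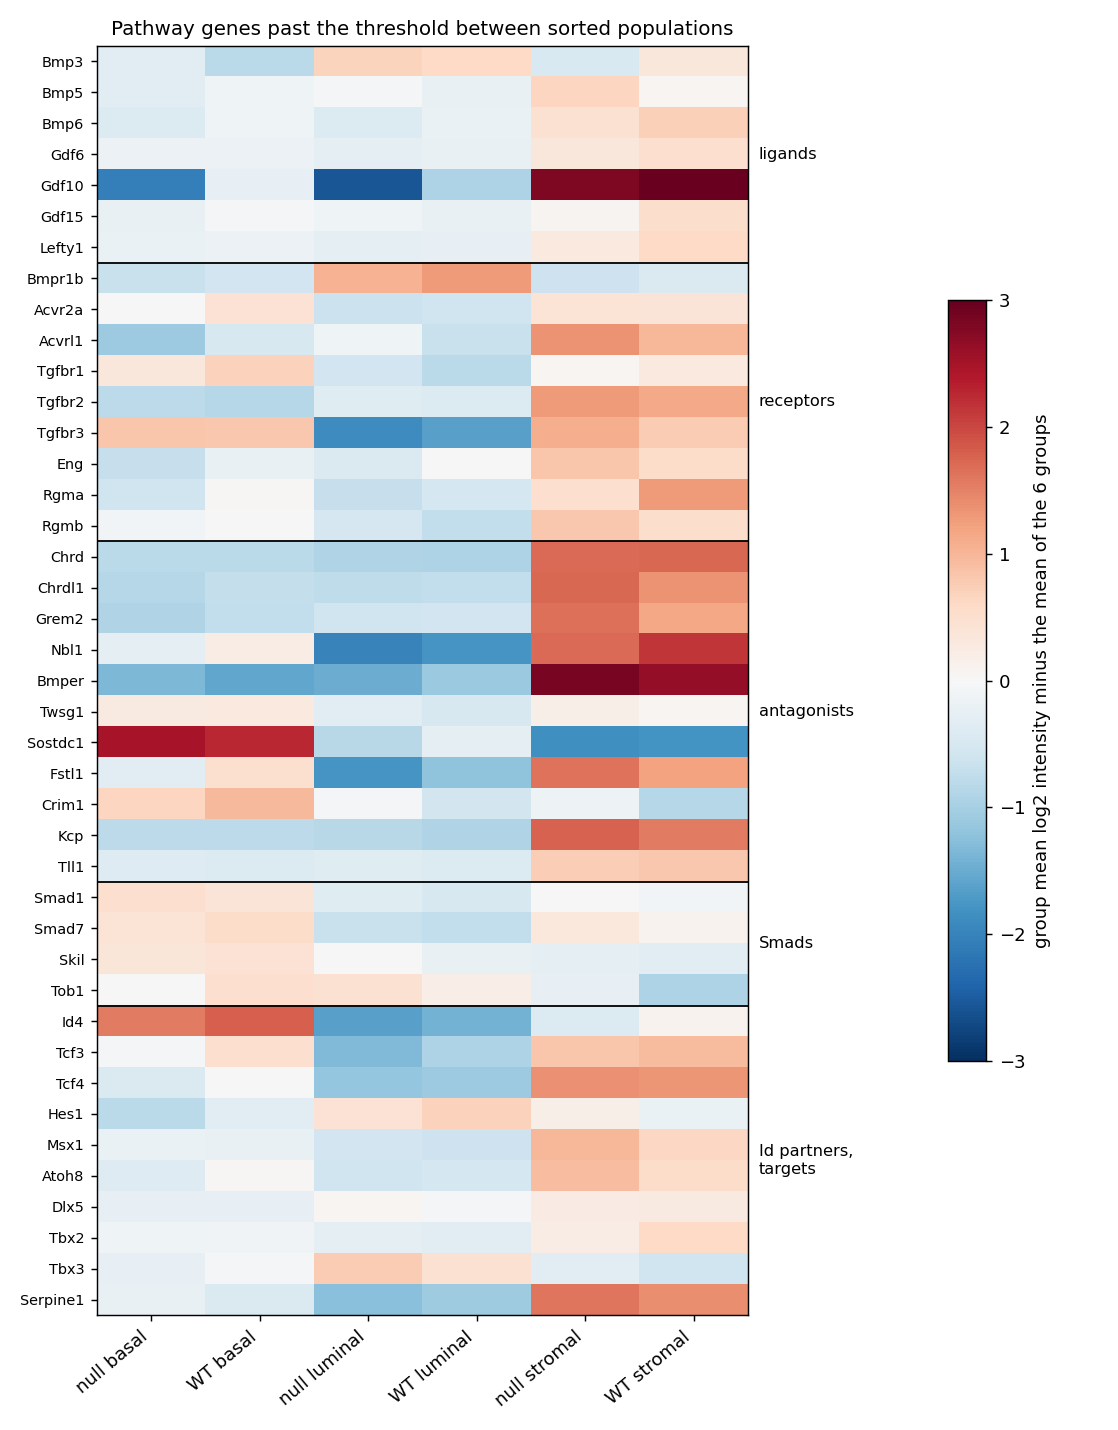
Group mean log2 intensity of the pathway genes past the threshold in at least 1 comparison of sorted populations, minus each gene's mean over the 6 sorted groups (red higher, blue lower, colour capped at 3 either way). Chrd, Bmper and Gdf10 are red in the stromal columns, and Sostdc1 and Id4 in the basal columns.

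Over the 8 group means, and among 5616 genes whose means span at least 1 on the log2 scale, the genes most like each member by Pearson correlation were as follows. Bmp4 was most like Col1a1 (0.996) and Abcc9 (0.995), Bmp8a like P4ha3 (0.999) and Stra6 (0.993), and Bmp7 like P2ry1 (0.977) and Serpina3h (0.971). Fst was most like P2ry1 (0.989) and Car13 (0.986), and Id3 like Eml1 (0.997) and Ndrg4 (0.996). Id1 was most like Nrp2 (0.953) and Tlr2 (0.952), and the Id2 probes like Ccnd2 (0.989) and Fscn1 (0.988), and Gja1 (0.991) and Fscn1 (0.986). Inhba, searched among 5617, had Dcaf10 (0.899) and Alkbh4 (0.82). The means share arrays, and the values carry no test.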

How the data were processed

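Each of 24 samples was hybridised to 1 Illumina bead array, and groups came from the labels. The deposited table holds linear intensity for 25697 probes, not normalized, and its columns of detection p-values stand beside each array's intensities, per the file headers. Every such p-value is a whole number of steps of 1/798. A second deposited table of intensities differed from a quantile normalization of the first by at most 0.0718 on the log2 scale and served as an alternative. No source used here names the scanner software.

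Background was removed with normexp from the detection p-values, with 16 added as an offset, before quantile normalization on the log2 scale (neqc of limma 3.58.1, R 4.3.3). Probes with detection p below 0.05 on at least 3 arrays, 17878 in all, were fitted with 1 mean per group over the 24 arrays (lmFit, eBayes). Tests are two-sided, probes of a gene were kept apart, and p-values were adjusted by Benjamini-Hochberg over all probes within each of 13 comparisons, with a threshold of 0.05. The median standard error (SE) was 0.301 for a difference of 2 groups, and the number of arrays limits the precision. Where no array of the dimmer group detected a probe, the fold is a lower bound ("at least"), against the higher, per array, of the probe's own value and the lowest detected signal. The fit was tested on simulated data with independent noise. Those data held neither the unlabelled split nor correlated arrays, so they cannot show how the fit behaves under them.

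Pathway genes, 1 probe each, were named if past the threshold in a null over WT comparison, and between populations up to 3 per list by lowest p. Marker levels are means over a list of log2 values centred per gene. The members and lists were chosen with earlier results of these data known. Deviations from group means of same-numbered arrays correlated by 0.176 to 0.408 in each of the WT population pairs. The unlabelled split also sets WT replicate 3 of every population apart, so these correlations cannot tell shared animals from that split. In null pairs the correlation was as low as 0.08 and between genotypes as low as -0.225. Alternatives were the second table, median scaling, no detection filter, 1 probe per gene, the compared groups alone, array weights, a replicate block, the unlabelled split as a block and by side, and leaving out each array. The replicate block was the replicate number in null over WT comparisons and the sample code in all others. No label says that WT and null arrays of the same number belong together.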

Additional observations from a re-analysis of the deposited data

How the results depend on the processing

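Of 34 member changes past the threshold, 34 kept their direction under every alternative run and 14 stayed past the threshold in all of them, among them Bmp4 against stromal cells and Bmp7 and Fst in basal over luminal cells, in both genotypes. Bmp8a in null over WT stromal cells passed in 8 of 16 alternatives, with log2 changes of 0.62 (second table, adjusted p = 0.0315) to 1.83, and failed with median scaling (1.45, adjusted p = 0.419) and when the stromal groups were fitted alone (adjusted p = 1). The cause of these losses was not tested, but fits on sides of the split and on single pairs of groups use fewer arrays. On a side, a group can be 1 array, which is then assumed to vary like the other groups.

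Only the larger moves in the counts of member probes past the threshold are listed below. Among smaller ones, WT basal over luminal cells lost Id1 and Id2 (ILMN_2887239) with the compared groups alone and on the positive side of the split. WT luminal over stromal cells gained Bmp8a and Id1 with array weights. For null over WT stromal cells the count was 0 with median scaling, with the compared groups alone and on either side of the split, and 0 to 1 leaving out single arrays. For basal over luminal it was 2 on the positive side in null cells and 2 on the negative side in WT cells, where leaving out arrays gave 3 to 6. For basal over stromal it was 3 with median scaling and 2 on the negative side in null cells, and in WT cells 4 with the second table, 1 with median scaling, 4 with array weights, 1 on the negative side and 1 to 2 leaving out arrays. For luminal over stromal it was 5 on the positive side in null cells and 2 on the negative side in WT cells. For the differences of null effects against stromal cells it was 1 with array weights, and 0 to 1 leaving out arrays, with 1 without WT stromal replicate 3.

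With the sample code as the replicate block, 3 member probes passed in WT basal over stromal and 7 in WT luminal over stromal cells. The gains were Bmp8a and Id1, and no other call changed with the replicate block. With the replicate number as the block, Bmp8a in null over WT stromal cells kept its call (adjusted p = 0.00838). No slide is named for any array, so slide could not be a block. Signals near background, as for Bmp8a, Inhba and luminal Bmp7, limit what the array can order.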
